A study of Caenorhabditis elegans with 12 samples.

Results

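Vehicle-treated worms of this RNA-seq series were not alike, and the account below concerns the 2 of the 6 vehicle pools in which the genes of the major sperm protein (MSP) were low. The 12 samples of the series are pools of whole Caenorhabditis elegans, a hermaphrodite nematode, of the wild-type strain N2, of which 6 were kept on vitamin D and 6 on its vehicle, dimethyl sulfoxide (DMSO). The 6 vehicle pools are the samples used, and the vitamin D pools are not. For each vehicle pool the mean of log2(CPM + 1) was taken over all 31 genes whose symbol starts with msp-, where CPM is the count of a gene over the total of its library, times 1e+06. Pools below the mean of the 6 values were set against pools above it.

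Both sets of pools share genotype, vehicle and growth at 20 °C, and no label separates them. They differ in the labels only by their numbers, and pools 2 and 3 form the low set while pools 1, 4, 5 and 6 form the other. The labels disagree about the worms: the series text has L4 larvae placed on the plates for 44 h and 50 worms to a pool, whereas the protocol has treatment begin at 1 day of age and 40 worms to a pool. Each pool mixes whole animals, so a level is a mean over worms and over tissues. Fewer cells of a type and less RNA per cell cannot be told apart in such data. Series and labels call the pools biological replicates and give no date, batch or plate for a pool.

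Hermaphrodites of this species make sperm late in larval life and then switch the germline to oocytes, and MSP is the cytoskeletal protein that drives the crawling of nematode sperm. Larvae moult between stages: the hypodermis, the skin of the worm, secretes a new cuticle in a timed order, beginning with a temporary outer matrix and the collagens of the ring-shaped furrows and ending with the collagens of the finished stage. The intestine of adult hermaphrodites makes vitellogenins, the yolk proteins, which oocytes take up. These programmes follow each other around the passage from larva to adult.

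The values that chose the pools were 3.58 and 3.30 in pools 2 and 3, against 5.84, 6.27, 6.26 and 6.18 in pools 1, 4, 5 and 6, with a mean of 5.24. The nearest values on either side of that mean were those of pool 2 and pool 1, which lay 2.26 apart. Of the 31 msp genes, 28 had a count, and together they held 0.0568% and 0.0454% of the counts of pools 2 and 3, against 0.354%, 0.502%, 0.480% and 0.459% of those of pools 1, 4, 5 and 6. All of these values used the measure that made the choice, and every other gene was read from the same libraries. No difference between the 2 sets of pools was therefore tested, and no p-value is given anywhere below. The values are a description of these 6 libraries.

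**Figure D1:**
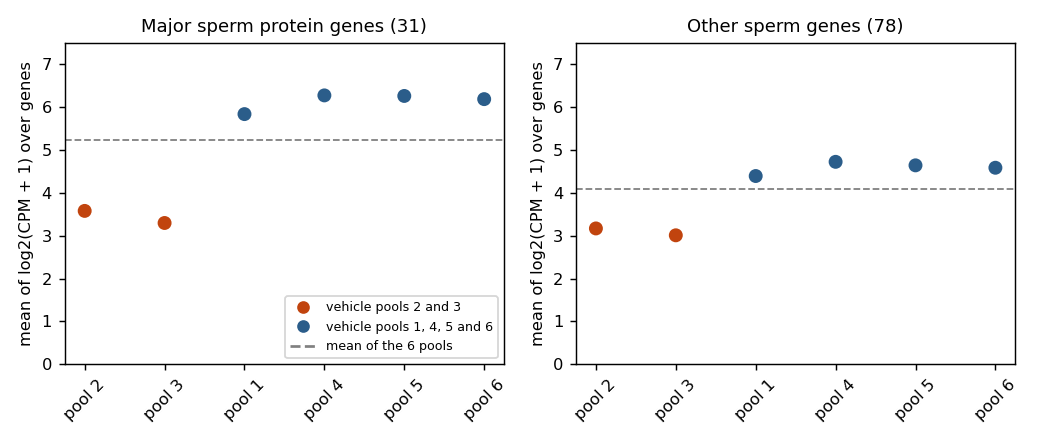
Mean of log2(CPM + 1) over the 31 msp genes (left) and over 78 other sperm genes (right), 1 point per vehicle pool, with the mean of the 6 pools as a dashed line. Pools 2 and 3 sit at 3.58 and 3.30 for the msp genes, and the other pools lie between 5.84 and 6.27.

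Libraries held 31535355 and 34650622 counts in pools 2 and 3, against 30203731 to 35230983 in pools 1, 4, 5 and 6. The number of genes with a count was 16394 and 16576 in pools 2 and 3, against 16448 to 16949 in the other 4. The TMM factor, which corrects for a few genes taking a large share of a library, was 0.965 and 0.974 in pools 2 and 3, against 0.980 to 1.06 in pools 1, 4, 5 and 6. Measured markers of intestine, body wall muscle, neurons and pharynx were present in all 6 pools, and those of sperm and oocytes were too. Of 6 markers named for oocytes 4 were measured and 2 were listed at 0. Of 6 named for neurons 5 were matched to the table, of which 4 were measured and 1 was listed at 0. The 5 defining embryo markers were at or near 0: their summed level was 0.591 and 0.356 CPM in pools 2 and 3, against 0.519 to 0.925 CPM in pools 1, 4, 5 and 6. Among them tbx-37 lies on chromosome III, so that its 0 carries no information on embryos. All 2800 entries on chromosome III and the 24 mitochondrial entries were listed at 0 in every pool and were not analysed here.

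Outside the msp class, 11923 genes had a mean of at least 1 CPM over the 6 pools. Below, a gene is called lower when pools 2 and 3 both lay under all 4 other pools and the difference of the mean log2(CPM + 1), pools 2 and 3 minus pools 1, 4, 5 and 6, was -1 or less. It is called higher by the mirror image of that rule. By it 1476 genes, or 12.4%, were lower in pools 2 and 3 and 591 genes, or 4.96%, were higher, which is 17.3% in either direction. These shares are the background against which the gene groups below are read. Over all 11923 genes the median difference was 0.02, and the differences ran from -5.87 to 3.52. Without the minimum size, 3973 genes lay wholly below and 3983 wholly above, so that the excess of lower genes belongs to the larger differences. A difference of at least 4-fold was reached by 428 lower and 138 higher genes, and one of at least 8-fold by 101 lower and 25 higher genes. The lower genes together held 2.37% and 2.06% of the counts in pools 2 and 3, against 8.59%, 10.6%, 9.55% and 9.34% in pools 1, 4, 5 and 6. The higher genes held 8.0% and 8.17% in pools 2 and 3, against 3.74%, 2.01%, 2.74% and 2.51% in pools 1, 4, 5 and 6.

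**Figure D2:**
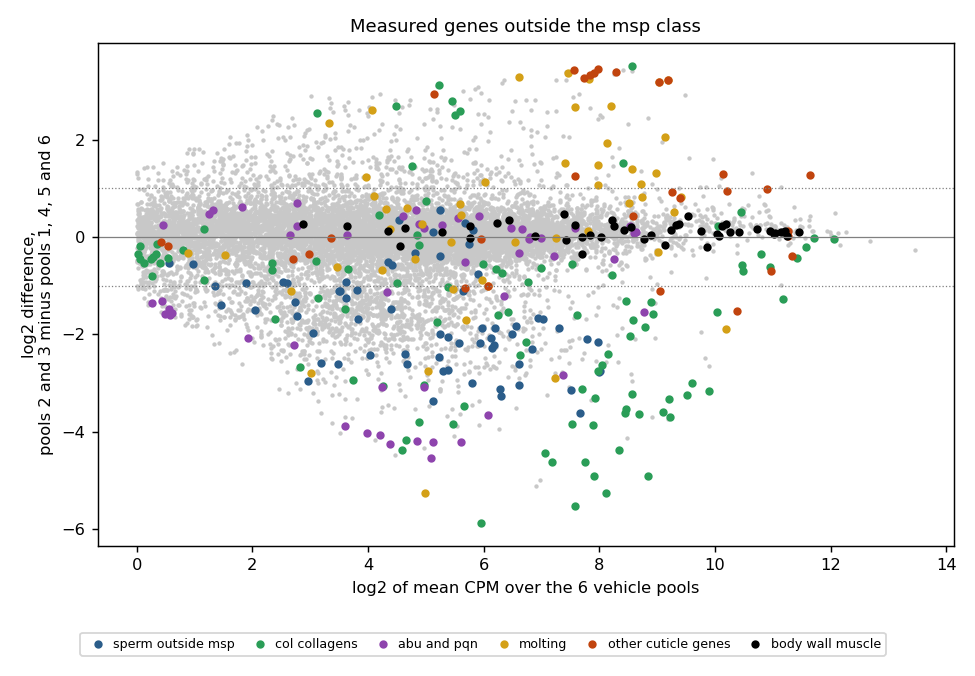
Difference in mean log2(CPM + 1), pools 2 and 3 minus pools 1, 4, 5 and 6, plotted against the log2 of the mean CPM over the 6 pools, 1 point per measured gene. Dotted lines mark a difference of 1 in either direction. Collagens of the col class span -5.87 to 3.52, and body wall muscle genes lie between -0.35 (tnt-3) and 0.48 (dys-1).

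The msp genes were not alone among sperm genes. Of 66 measured sperm genes outside the msp class 49, or 74.2%, were lower in pools 2 and 3 and none was higher, with a median difference of -1.87. A further 12 of the 78 in the table were under the filter on low values, 6 of them on chromosome III. sss-1, a small gene of a sperm-specific family, had 27.5 and 18.8 CPM in pools 2 and 3, against 219, 365, 285 and 307 CPM in pools 1, 4, 5 and 6. spch-1, which encodes a sperm chromatin protein, had 86.5 and 64.7 CPM in pools 2 and 3, against 292, 399, 343 and 322 CPM in pools 1, 4, 5 and 6. gsp-3, a sperm-specific protein phosphatase, had 53.1 and 50.6 CPM in pools 2 and 3, against 151, 203, 164 and 159 CPM in pools 1, 4, 5 and 6. For these 3 genes pools 2 and 3 lay far under the lowest of the other pools, and the differences were -3.61, -2.16 and -1.68. The remaining defining sperm genes went the same way: gsp-4, another sperm phosphatase, with -1.82, smz-1, a PDZ-domain sperm protein, with -1.87, spe-11, a factor that sperm bring to the egg, with -2.07, and spe-9, a sperm surface protein needed for fertilization, with -1.09 (-0.88 without pool 3).

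Sperm genes did not differ to the same degree, and their roles can be set beside the size of the difference. A group of 20 measured genes for small structural proteins and phosphatases of sperm, grouped by role after the values were seen, summed to 643 and 530.3 CPM in pools 2 and 3, against 2761, 4090.2, 3289.6 and 3133 CPM in pools 1, 4, 5 and 6. All 20 were lower. A group of 4 genes that act earlier, in choosing the sperm fate or in transcribing sperm genes, summed to 124 and 122.2 CPM in pools 2 and 3, against 89.3, 91.8, 84.9 and 91.9 CPM in pools 1, 4, 5 and 6. In the sum of that group pools 2 and 3 lay above the other pools, but only 1 of the 4 genes was called higher and elt-1 ran the other way. fog-3, which is required for germ cells to become sperm and which was the only oocyte or germline list member called higher, had 28.1 and 29.5 CPM in pools 2 and 3, against 10.3, 6.47, 5.98 and 7.49 CPM in pools 1, 4, 5 and 6, a difference of 1.82. fog-1, an RNA-binding regulator of the same decision, had 20.9 and 19.9 CPM in pools 2 and 3, against 13, 10.4, 11.4 and 13.04 CPM in pools 1, 4, 5 and 6, which separates the pools but is under 2-fold. spe-44, a transcription factor of sperm genes, had 58.1 and 58.3 CPM in pools 2 and 3, against 47.02, 49.7, 45.3 and 47.3 CPM in pools 1, 4, 5 and 6. elt-1, a GATA factor that acts in the germline as well as in the hypodermis, had 16.49 and 14.6 CPM in pools 2 and 3, against 19.4 to 25.3 CPM in pools 1, 4, 5 and 6. These 4 regulators fall outside the rule for naming genes and were picked after their values were seen. Other sperm genes under 2-fold were fer-1, a ferlin of sperm membrane fusion, with a difference of 0.14, and spe-4, a presenilin-like sperm protein, with -0.76.

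Oocyte and germline genes were lower in fewer cases and by less. Of 64 measured members 18, or 28.1%, were lower and 1 was higher, the median difference being -0.55, and 9 of the 75 in the table lie on chromosome III. puf-5, an RNA-binding protein of late oocytes, had 16.3 and 14.2 CPM in pools 2 and 3, against 78.6, 99.8, 93.3 and 88.5 CPM in pools 1, 4, 5 and 6. perm-2, which encodes an eggshell protein, had 18.2 and 12.9 CPM in pools 2 and 3, against 101, 114, 108 and 93.5 CPM in pools 1, 4, 5 and 6. perm-4, another eggshell gene, had 48.3 and 39.1 CPM in pools 2 and 3, against 207.4, 248, 219 and 209 CPM in pools 1, 4, 5 and 6. In all 3 genes the other pools were at least 4 times as high as pool 2, the higher of pools 2 and 3. cpg-3, an eggshell proteoglycan, differed by -2.17, pos-1, a maternal RNA-binding protein of the early embryo, by -2.09, and rme-2, the yolk receptor of oocytes, by -1.49. rme-2 had 56.6 and 43.99 CPM in pools 2 and 3, against 130, 158, 144 and 137 CPM in pools 1, 4, 5 and 6. oma-2, an oocyte maturation factor, was lower by the rule with -1.13, and its relative oma-1 was not, with -0.71. The defining oocyte genes cpg-1 and cpg-2 lie on chromosome III and were listed at 0.

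Within the germline list most of the lower genes were those of the growing oocyte. Of 19 measured genes for eggshell, oocyte surface and maternal RNA-binding proteins 16 were lower, and together they summed to 711 and 636 CPM in pools 2 and 3, against 1698, 2149.9, 1959.9 and 1869 CPM in pools 1, 4, 5 and 6. None of 13 genes of meiotic chromosome axes, synapsis and recombination was lower, and these summed to 680.4 and 686 CPM in pools 2 and 3, against 751, 877, 781 and 831 CPM in pools 1, 4, 5 and 6. Likewise none of 11 measured germ granule and small RNA pathway genes was lower, with 2766 and 2835 CPM in pools 2 and 3, against 3288, 4014, 3353 and 3648 CPM in pools 1, 4, 5 and 6. All 3 sums ran in the same direction, and the 4 other pools were above pools 2 and 3 in each. The 5 measured regulators of germline stem cells and of the entry into meiosis also held no lower gene, and gld-1, a translational repressor in that group, had 327 and 295 CPM in pools 2 and 3, against 489, 613, 557 and 541 CPM in pools 1, 4, 5 and 6. Of all measured genes 12.4% were lower, a share at which groups of 13, 11 and 5 genes would hold few lower members or none. The 4 germline groups were drawn from the list after its values were seen, so that their contrast is a description of it and nothing more.

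Yolk genes showed some of the widest gaps. The 6 vitellogenin genes summed to 431 and 401 CPM in pools 2 and 3, against 3038, 2642, 2864 and 2123 CPM in pools 1, 4, 5 and 6, and 5 of the 6 were lower, against 12.4% of all measured genes. vit-2 had 65.7 and 58.0 CPM in pools 2 and 3, against 925, 821, 958 and 660.2 CPM in pools 1, 4, 5 and 6, a difference of -3.73. vit-6, the only vitellogenin gene outside chromosome X, had 224 and 198 CPM in pools 2 and 3, against 1456, 1333, 1448 and 1092 CPM in pools 1, 4, 5 and 6, a difference of -2.65. vit-5 had 5.98 and 2.58 CPM in pools 2 and 3, against 245, 168, 172 and 123 CPM in pools 1, 4, 5 and 6, a difference of -5.11. In each of these genes the lowest of pools 1, 4, 5 and 6 stood clear above both low pools, and pool 6 was the lowest of the 4. vit-3 and vit-4 differed by -2.87 and -3.36, but vit-3, vit-4 and vit-5 are near-identical copies between which the counting may have split reads. vit-1 did not separate the pools, with 108 and 124 CPM in pools 2 and 3, against 130.3, 110.1, 103.7 and 88.7 CPM in pools 1, 4, 5 and 6.

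Among the genes that act on yolk production, mab-3 went the other way. It encodes a DM-domain transcription factor known to repress yolk genes in the intestine of males, and it had 34.96 and 35.9 CPM in pools 2 and 3, against 11.99, 2.90, 6.10 and 3.124 CPM in pools 1, 4, 5 and 6, a difference of 2.55. It was the only gene called higher in the yolk list of 13 genes and in the sex determination list of 11. Male neuron genes of that list were near 0 in every pool: pkd-2, a polycystin-related channel of male neurons, had 0.230 and 0.178 CPM in pools 2 and 3, against 0.183 to 0.348 CPM in pools 1, 4, 5 and 6. elt-2, the GATA factor that governs intestinal genes, vitellogenins included, had 37.7 and 41.2 CPM in pools 2 and 3, against 37.02, 33.1, 40.5 and 35.8 CPM in pools 1, 4, 5 and 6, with overlap between the sets of pools. unc-62 and ceh-60, a pair of homeodomain factors of yolk transcription, and pqm-1, a zinc finger factor, differed by 0.47, -0.67 and -0.50 and were not called.

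Collagens of the cuticle lay on both sides. Of 102 measured genes of the col class of cuticle collagens 52, or 51%, were lower and 9, or 8.82%, were higher, and 54 of the 156 in the table were under the filter. The median difference was -1.26 and, with no filter on low values, -0.64. The gene with the lowest difference of all measured genes was col-137, with 0.756 and 0.356 CPM in pools 2 and 3, against 118, 117, 75.1 and 60.6 CPM in pools 1, 4, 5 and 6, a difference of -5.87. It rested on 23 and 12 counts in pools 2 and 3, against 1901 to 4088 in pools 1, 4, 5 and 6. col-19, the collagen used as a marker of the adult cuticle, had 9.20 and 2.58 CPM in pools 2 and 3, against 366, 293, 266 and 205 CPM in pools 1, 4, 5 and 6, a difference of -5.52. col-81 had 13.7 and 6.67 CPM in pools 2 and 3, against 296 to 526 CPM in pools 1, 4, 5 and 6. Of the 10 lowest differences named by rule, 7 belonged to collagens, and col-129, col-140, col-178 and col-20 were the other 4, at -4.91, -4.90, -4.63 and -4.62. In all 7 the highest of pools 2 and 3 lay at least 10 times under the lowest of the other pools.

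A few collagens of the same class were high where these were low. col-149, the gene with the highest difference of all, had 725 and 1012 CPM in pools 2 and 3, against 376, 15.6, 62.9 and 77.1 CPM in pools 1, 4, 5 and 6, a difference of 3.52. col-128 had 77.3 and 93.1 CPM in pools 2 and 3, against 33.5, 1.74, 9.26 and 8.67 CPM in pools 1, 4, 5 and 6. col-103 had 66.1 and 128 CPM in pools 2 and 3, against 46.0, 8.49, 10.1 and 13.6 CPM in pools 1, 4, 5 and 6. Pool 1 stood between pools 2 and 3 and the remaining pools in each of these genes, and pool 4 was lowest or close to it. The other 6 higher members were col-42, col-46, col-47, col-110, col-153 and col-176, with differences between 1.46 and 2.78. Many col genes are close copies of each other, so a single gene's value may hold reads of a relative.

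The furrow collagens behaved as 1 group. dpy-2, dpy-3, dpy-7, dpy-8, dpy-9 and dpy-10 encode the 6 collagens that form the annular furrows of the cuticle, and their summed level was 3286 and 3452 CPM in pools 2 and 3, against 1143, 79.6, 361 and 308 CPM in pools 1, 4, 5 and 6. dpy-7 had 531 and 546 CPM in pools 2 and 3, against 180.0, 14.3, 59.6 and 49.4 CPM in pools 1, 4, 5 and 6. dpy-10 had 563 and 614 CPM in pools 2 and 3, against 209, 10.96, 60.9 and 54.5 CPM in pools 1, 4, 5 and 6. Pool 4 stood far below every other pool in both genes. All 6 genes were higher, with differences between 3.27 and 3.44, and all 6 put the pools in one order, pools 2 and 3 above pool 1, then pools 5 and 6, then pool 4. dpy-10 and dpy-2 are neighbours on chromosome II, at 6710149 to 6712227 and 6714292 to 6715971, while dpy-7 lies on chromosome X at 7536467 to 7537792. dpy-5 and dpy-13, a pair of cuticle collagens outside the furrow group, differed by 0.02 and 0.12. rol-6, another collagen and a defining hypodermis gene, had 999.8 and 887 CPM in pools 2 and 3, against 586, 549, 498 and 518 CPM in pools 1, 4, 5 and 6, which separates the pools but is under 2-fold, and sqt-3 differed by 0.98.

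Genes of the temporary outer matrix went with the furrow collagens. noah-1, which encodes a zona pellucida domain protein of that matrix, had 1266 and 1415 CPM in pools 2 and 3, against 462, 40.1, 158 and 140.3 CPM in pools 1, 4, 5 and 6, a difference of 3.22. sym-1, a leucine-rich repeat protein of the same matrix, had 645 and 804 CPM in pools 2 and 3, against 14.96 to 277 CPM in pools 1, 4, 5 and 6. The 5 measured genes of the group were all higher, and they summed to 3155 and 3606 CPM in pools 2 and 3, against 1199.5, 97.2, 383 and 345 CPM in pools 1, 4, 5 and 6. The 4 lipocalin-related genes lpr-3, lpr-4, lpr-5 and lpr-6, secreted proteins of the same layer, were all higher too and summed to 2618 and 2889.8 CPM in pools 2 and 3, against 933, 64.4, 290.0 and 267 CPM in pools 1, 4, 5 and 6. They form a run of neighbours on chromosome X between 11053915 and 11066811, together with C09F12.2. lpr-3 and lpr-4 differed by 3.398 and 3.43. Enzymes that build collagen were higher by less: pdi-2, a subunit of the prolyl 4-hydroxylase, had 5209.7 and 5314 CPM in pools 2 and 3, against 2687, 1971, 2025 and 2044 CPM in pools 1, 4, 5 and 6, a difference of 1.28. phy-2, its catalytic partner, differed by 1.26. Over the whole list of 31 measured cuticle genes outside the col class 12, or 38.7%, were higher and 4, or 12.9%, were lower. The median difference was 0.81 and, with no filter on low values, 0.425. These groups too were drawn after the values were seen.

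Moulting genes were mostly on the higher side, but not all. Of 50 measured members 18, or 36%, were higher and 9, or 18%, were lower, with a median difference of 0.59. nas-37, the astacin protease that opens the old cuticle, had 434 and 408 CPM in pools 2 and 3, against 136, 29.9, 82.1 and 55.5 CPM in pools 1, 4, 5 and 6, a difference of 2.66. wrt-2, a hedgehog-related gene of the hypodermis, had 434 and 403 CPM in pools 2 and 3, against 116, 12.5, 50.7 and 33.4 CPM in pools 1, 4, 5 and 6. mlt-11, a protease inhibitor needed to moult, had 202 and 261 CPM in pools 2 and 3, against 74.0, 9.22, 19.9 and 18.8 CPM in pools 1, 4, 5 and 6. In all 3, pool 4 was lowest and pool 1 highest among pools 1, 4, 5 and 6. Genes that time the moults were higher by less: lin-42, a relative of the circadian gene Period, had 653 and 637 CPM in pools 2 and 3, against 269, 229, 257 and 225 CPM in pools 1, 4, 5 and 6, a difference of 1.397. nhr-23, a nuclear receptor needed for every moult, differed by -0.09 and did not separate the pools, and mlt-10 differed by 0.82. Lower members included grl-4, a ground-like hedgehog-related gene, with 0.131 and 0.207 CPM in pools 2 and 3, against 72.6, 59.7, 28.1 and 30.4 CPM in pools 1, 4, 5 and 6. Another was ptr-23, a patched-related gene, with 30.9 and 24.2 CPM in pools 2 and 3, against 213, 224, 203 and 206 CPM in pools 1, 4, 5 and 6. grl-4 had under 1 CPM in pools 2 and 3, and its difference of -5.27 was the third lowest of all measured genes above 5 CPM.

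The hedgehog-related and astacin families also held called genes. Of 37 measured hedgehog-related genes 13 were higher and 10 were lower, which is 35.1% and 27%, and the median was 0.70, or -0.08 with no filter on low values. grd-6 had 8.02 and 2.76 CPM in pools 2 and 3, against 140.3 to 228 CPM in pools 1, 4, 5 and 6, a difference of -4.99. wrt-10, a further member, had 462 and 574 CPM in pools 2 and 3, against 13.7 to 203 CPM in pools 1, 4, 5 and 6, a difference of 3.24. Of 25 measured genes of the nas class of astacin proteases 11, or 44%, were lower and 2, or 8%, were higher, with a median of -0.80. nas-20 had 0.723 and 0.0593 CPM in pools 2 and 3, against 12.02, 12.8, 15.1 and 12.27 CPM in pools 1, 4, 5 and 6, and it stands with nas-21 and nas-22, also lower.

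The abu genes, named for their activation when the unfolded protein response is blocked and known in part as components of the lining of the pharynx, had the lowest median among the 94 symbol prefixes that held 10 or more measured genes. Of 12 measured abu genes 11 were lower, with a median difference of -3.77. abu-8 had 2.53 and 0.296 CPM in pools 2 and 3, against 75.95, 46.9, 45.8 and 33.8 CPM in pools 1, 4, 5 and 6, a difference of -4.53. pqn-54, a prion-like glutamine- and asparagine-rich gene, had 3.68 and 2.22 CPM in pools 2 and 3, against 84.7, 66.7, 71.1 and 63.7 CPM in pools 1, 4, 5 and 6. abu-1 had 3.55 and 0.711 CPM in pools 2 and 3, against 61.4, 48.4, 49.6 and 44.95 CPM in pools 1, 4, 5 and 6. Over the joint list of 51 abu and pqn genes 23 were lower and none was higher, but the median of the list was -0.38. That median was -0.23 without pool 1 and -0.13 with no filter on low values. The abu genes are close copies of each other, and their separate values are uncertain.

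Genes of muscle and neurons lay closer together in the 2 sets of pools. None of 45 body wall muscle genes was called, and their median difference was 0.11. unc-54, the main muscle myosin, had 2216 and 2677 CPM in pools 2 and 3, against 2355, 2344, 2638 and 2292 CPM in pools 1, 4, 5 and 6. myo-3, another muscle myosin, had 504 and 533 CPM in pools 2 and 3, against 596, 561, 607 and 563 CPM in pools 1, 4, 5 and 6. Of 43 neuronal genes 1 was lower and 1 was higher, with a median of 0.13. rab-3, a synaptic vesicle protein of all neurons, had 23.7 and 25.3 CPM in pools 2 and 3, against 23.4, 24.4, 28.1 and 25.8 CPM in pools 1, 4, 5 and 6. The called pair were tbh-1, an enzyme of octopamine synthesis, with 3.98 and 3.26 CPM in pools 2 and 3, against 20.8, 15.3, 19.3 and 15.2 CPM in pools 1, 4, 5 and 6, and sbt-1, a chaperone of neuropeptide processing. sbt-1, which the naming rule left out, had 8.28 and 7.61 CPM in pools 2 and 3, against 2.69, 1.404, 1.95 and 1.53 CPM in pools 1, 4, 5 and 6. None of 22 flp neuropeptide genes was called, although their median was 0.45. In the pharynx list 1 of 21 genes, or 4.76%, was lower and 2, or 9.52%, were higher, against 12.4% and 4.96% of all. The median of that list was 0.21. All of the muscle genes and all but 2 of the neuron genes thus differed by less than 2-fold or overlapped between the sets of pools.

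**Figure D3:**
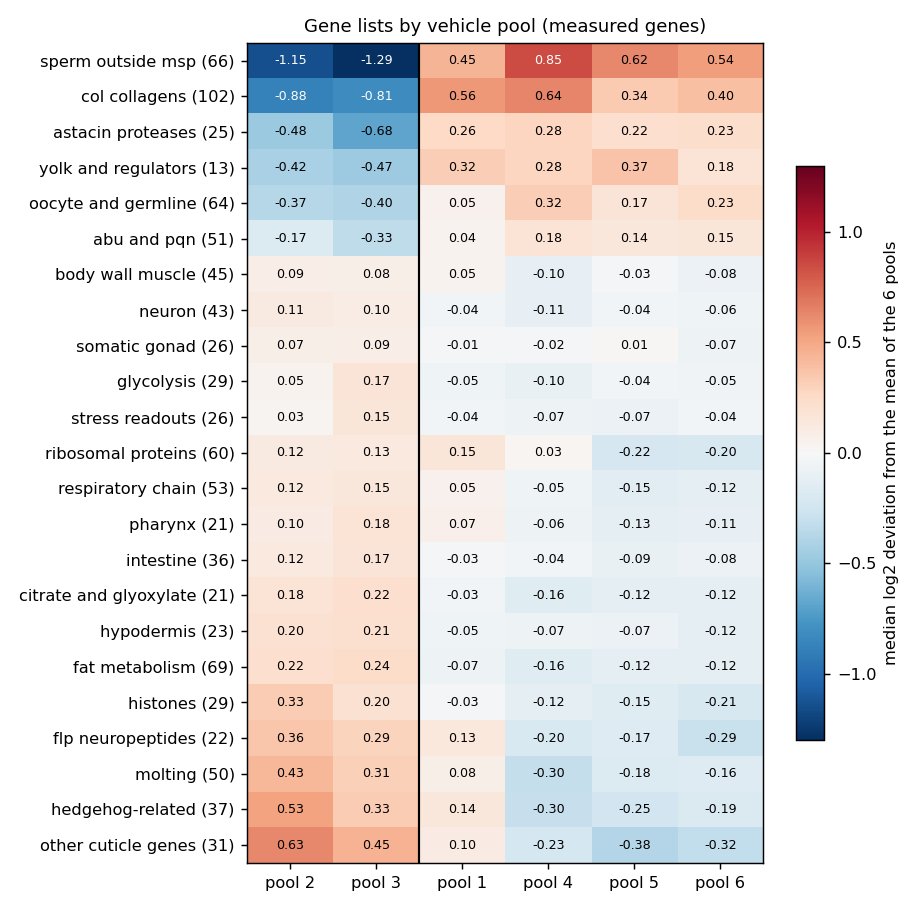
Median log2 deviation of each gene list from its mean over the 6 vehicle pools, with the number of measured genes in brackets and a vertical line between pools 2 and 3 on the left and pools 1, 4, 5 and 6 on the right. Sperm genes run from -1.29 in pool 3 to 0.85 in pool 4, and other cuticle genes from 0.63 in pool 2 to -0.38 in pool 5, while body wall muscle stays between -0.10 and 0.09.

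The intestine list leaves out the yolk genes, most of whose vitellogenins were lower as given above. Of its 36 measured genes none was lower and 4, or 11.1%, were higher, against 4.96% of all measured genes. Among the 4, cpr-4, a cathepsin B-like protease, had 1796 and 1782 CPM in pools 2 and 3, against 845, 493, 585 and 496 CPM in pools 1, 4, 5 and 6, a difference of 1.60. cpr-1 and cpr-5, of the same family, differed by 1.32 and 1.21, and ftn-1, a ferritin heavy chain, by 1.60. ges-1, the gut esterase, differed by 0.27. In the hypodermis list of 23 genes col-19 was lower and 3 genes, or 13%, were higher, among them elt-3, a GATA factor of the skin, with 50.4 and 53.4 CPM in pools 2 and 3, against 32.6, 12.97, 21.7 and 16.07 CPM in pools 1, 4, 5 and 6. lin-29, the zinc finger factor of the larval-to-adult switch, had 97.98 and 103 CPM in pools 2 and 3, against 59.1, 37.8, 45.3 and 42.3 CPM in pools 1, 4, 5 and 6. Both factors separated the pools, with pool 1 the highest of the other 4. In the somatic gonad 2 of 26 genes, or 7.69%, were lower, against 12.4% of all, of which sth-1, a gene of the spermatheca, had 10.9 and 11.1 CPM in pools 2 and 3, against 42.1, 53.0, 48.2 and 43.6 CPM in pools 1, 4, 5 and 6. lim-7, a marker of the gonadal sheath, differed by 0.03. Of 13 genes of coelomocytes, glia and the excretory system 2, or 15.4%, were higher and none was lower. ptr-10, a marker of glia, had 49.5 and 56.9 CPM in pools 2 and 3, against 21.6, 3.30, 5.61 and 7.01 CPM in pools 1, 4, 5 and 6, a difference of 2.68. The other glia marker, fig-1, differed by 0.45 and was not called.

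Few genes of central metabolism were called, but the medians of fat metabolism, at 0.35, and of the citrate and glyoxylate cycles, at 0.28, lay above the 0.02 of all measured genes. This was not particular to metabolism: the medians were 0.32 for hypodermis, 0.25 for intestine and 0.40 for histones. Body wall muscle, at 0.11, lay nearer to 0.02, and the sperm, oocyte and germline, yolk and col lists lay below it. Of 29 genes of glycolysis and sugar storage 3, or 10.3%, were lower, against 12.4% of all genes, and none was higher, the median being 0.13. hxk-1, a hexokinase, had 48.9 and 43.1 CPM in pools 2 and 3, against 112.3, 145, 136 and 139.7 CPM in pools 1, 4, 5 and 6. pck-3, of the phosphoenolpyruvate carboxykinase family, had 18.9 and 15.5 CPM in pools 2 and 3, against 54.1, 65.0, 62.7 and 63.5 CPM in pools 1, 4, 5 and 6. gpd-1, a glyceraldehyde phosphate dehydrogenase, had 30.98 and 28.1 CPM in pools 2 and 3, against 56.4 to 78.7 CPM in pools 1, 4, 5 and 6. All 3 have relatives in the genome that were not lower, such as hxk-2 with 0.28 and pck-2 with 0.48, both named after their values were seen. In the citrate and glyoxylate cycles 1 of 21 genes was called, idh-1, an isocitrate dehydrogenase, with 683 and 792 CPM in pools 2 and 3, against 457, 277, 338 and 327 CPM in pools 1, 4, 5 and 6. It differed by 1.09, and without pool 3 or 4 by less than 2-fold, at 0.98 and 0.99. Of 69 genes of fat metabolism 2, or 2.9%, were lower, against 12.4% of all, and 4, or 5.8%, were higher, against 4.96%. acdh-8, an acyl-CoA dehydrogenase, had 26.3 and 25.6 CPM in pools 2 and 3, against 92.3, 118, 101 and 108 CPM in pools 1, 4, 5 and 6, a difference of -1.97. acox-1.2, a peroxisomal acyl-CoA oxidase, had 264 and 288 CPM in pools 2 and 3, against 117, 73.5, 88.6 and 78.9 CPM in pools 1, 4, 5 and 6, a difference of 1.64. fasn-1, the fatty acid synthase, fat-3, a fatty acid desaturase, and sams-1, an S-adenosylmethionine synthetase, differed by 1.01, 1.07 and 1.05, just over the size rule. With library totals sams-1 and fasn-1 were under it, at 0.98 and 0.94. Without pool 3 all 3 were under it, at 0.90 for fasn-1, 0.99 for fat-3 and 0.97 for sams-1, and fasn-1 also without pool 4, 5 or 6, at 0.96 to 0.98. In the respiratory chain 1 of 53 genes was lower, cyc-2.2, a cytochrome c gene, with 35.9 and 31.7 CPM in pools 2 and 3, against 72.7 to 94.2 CPM in pools 1, 4, 5 and 6. Among cytosolic ribosomal proteins it was 1 of 60, rpl-42, with 2.86 and 1.54 CPM in pools 2 and 3, against 7.45 to 11.5 CPM in pools 1, 4, 5 and 6.

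The pools also had an order inside the 4 that lay above the mean. Among the 591 higher genes pool 1 was the nearest of the 4 to pools 2 and 3 in 551, or 93.2%, and pool 4 was the farthest in 476, or 80.5%. The full order of the furrow collagens, pools 2 and 3 above pool 1, then pools 5 and 6, then pool 4, was shared by 453 of the 591, or 76.6%. Over these genes the median deviation from the mean of the 6 pools was 0.95 and 0.99 in pools 2 and 3, against 0.05, -0.84, -0.52 and -0.59 in pools 1, 4, 5 and 6. Pool 1 was thus close to the mean of the 6 pools for the higher genes. For the 1476 lower genes it was not: the median deviation was -1.02 and -1.17 in pools 2 and 3, against 0.39, 0.72, 0.58 and 0.55 in pools 1, 4, 5 and 6. Pool 1 was the nearest of the 4 in 981 of them, or 66.5%. Pool 1 also decided where the line falls when the median of the 6 msp values, 6.01, takes the place of their mean, because it then joins pools 2 and 3. With that line 782 genes were lower and 495 were higher, and 776 and 463 of them were among those counted above.

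**Figure D4:**
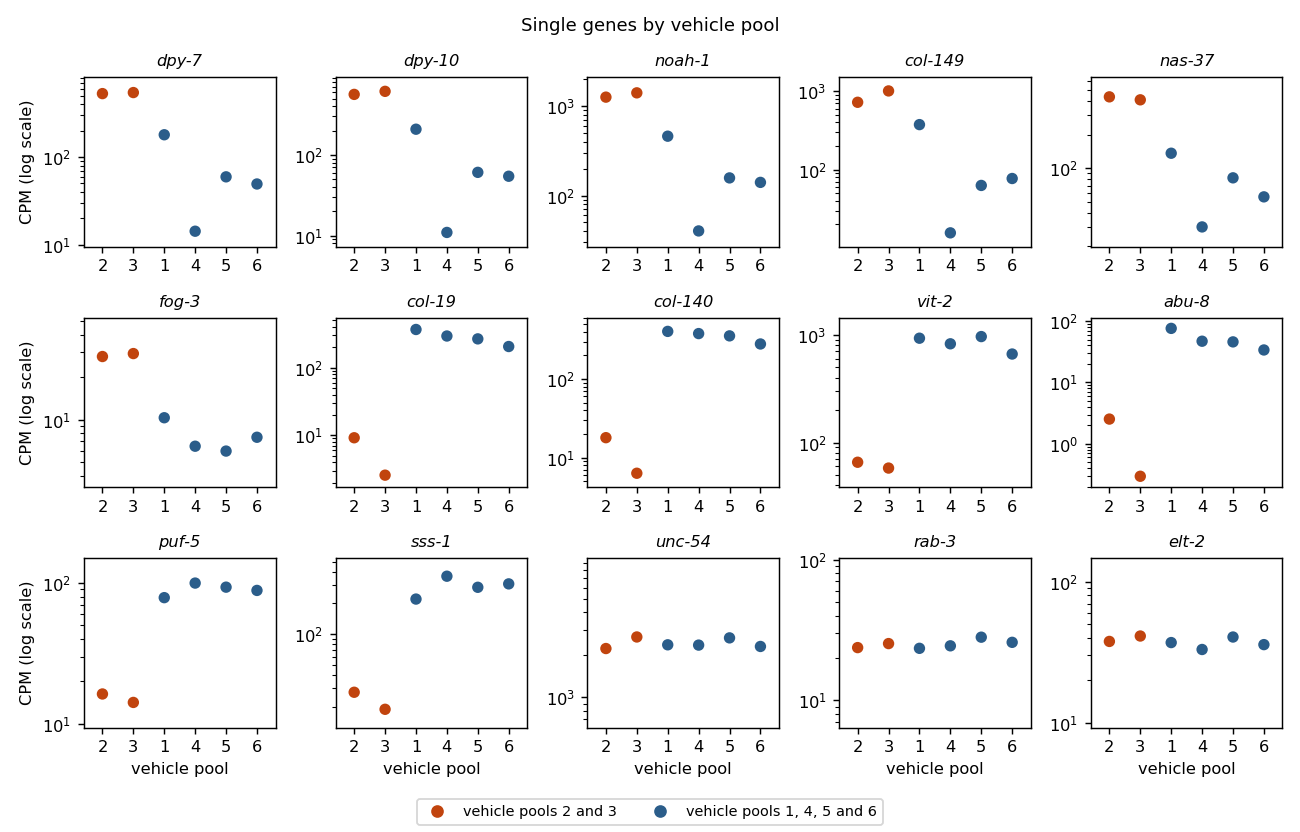
Level of 15 genes in CPM on a log axis, 1 point per vehicle pool, pools 2 and 3 to the left of pools 1, 4, 5 and 6. The top row, with dpy-7, dpy-10, noah-1, col-149 and nas-37, steps down through pool 1 to pool 4. col-19 stands at 9.20 and 2.58 CPM in pools 2 and 3 against 205 to 366 CPM in the others, and unc-54, rab-3 and elt-2 in the bottom row show no such step.

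Pools were also compared pair by pair, and the pairs are given here by their side of the line. Leaving out the sperm and msp lists kept 11857 of the 11951 measured genes, and any sperm genes outside those lists stayed in. Of the genes kept, 19 differed at least 2-fold between pools 2 and 3, and between 1519 and 2421 differed across the line. Within pools 1, 4, 5 and 6 the number ran from 9, between pools 5 and 6, to 340, between pools 1 and 4. The SD over genes of the log2 difference was 0.20 between pools 2 and 3, against 0.73 to 1.05 across the line and 0.19 to 0.44 within the 4 pools, all genes included. Chi-square per degree of freedom between the counts, in which counting error alone gives about 1, was 10.1 for pools 2 and 3 and 8.36 for pools 5 and 6, so that neither pair agreed within counting error. The labels do not say whether either pair shared plates or parents.

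**Figure D5:**
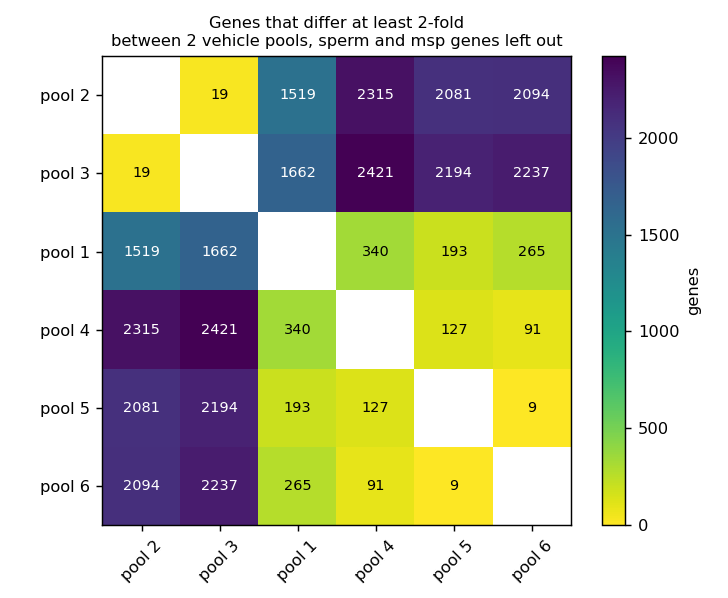
Number of genes that differ at least 2-fold between each pair of vehicle pools, with the sperm and msp lists left out. Pools 2 and 3 differ in 19 genes from each other and in 1519 to 2421 from the other pools, and pool 1 differs in 193 to 340 from pools 4, 5 and 6.

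Some genes varied most inside a set. Among pools 1, 4, 5 and 6 the widest range of any gene with a mean of at least 5 CPM belonged to col-149, at 4.50 on the log2 scale, between 376 CPM in pool 1 and 15.6 CPM in pool 4. dpy-6, a mucin-like gene of the outer matrix, had 16 and 34.4 CPM in pools 2 and 3, against 15.1, 0.214, 0.774 and 5.07 CPM in pools 1, 4, 5 and 6. grd-10, a hedgehog-related gene, had 14 and 23.1 CPM in pools 2 and 3, against 18.6, 0.275, 1.12 and 2.81 CPM in pools 1, 4, 5 and 6, so that pool 1 lay above pool 2 and the gene was not called. F46F2.3, with no role given in the files, had 47.7 and 85.3 CPM in pools 2 and 3, against 50.8, 2.93, 4.09 and 10.5 CPM in pools 1, 4, 5 and 6, and it was not called either. All 3 were high in pools 2, 3 and 1 and low in pools 4, 5 and 6. Between pools 2 and 3 most of the widest gaps were in collagens and abu genes. col-156 had 14.1 and 4.27 CPM in pools 2 and 3, against 252, 185, 192 and 148.9 CPM in pools 1, 4, 5 and 6. col-147 had 14.4 and 36.1 CPM in pools 2 and 3, against 77.1, 33.1, 47.3 and 42.7 CPM in pools 1, 4, 5 and 6. Pool 2 was above pool 3 in the collagens with the lowest differences, col-19 and col-140 included, and below it in col-103 and col-146.

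Position and length of the called genes can be set beside those of all measured genes. Chromosome X held 8.1% of the lower genes and 27.4% of the higher genes, against 16.7% of all measured genes with a position, and chromosome IV held 27.8%, 16% and 20.6% of them. Lower genes were short, with a median exon length of 1077 bases, against 1320 bases for the higher genes and 1379.5 for all measured genes. The encoded proteins had a median of 303 residues in the lower set and 362 in the higher set, against 374 in all. Along 4 equal bins of exon length, the share of lower genes was 18.7%, 16.6%, 9.32% and 5.69% from the shortest bin to the longest, and the share of higher genes was 5.17%, 5.42%, 5% and 4.39%. The median difference of all genes moved by less over these bins, with -0.01, -0.03, 0.03 and 0.06. The part of gene length in the libraries was not tested.

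Lower genes stood beside each other on the chromosomes. Of 1469 lower genes with a position 719, or 48.9%, had a lower gene as a direct neighbour among the measured genes, where 22.3% of all measured genes had such a neighbour. For 583 higher genes the number was 132, or 22.6%, against 9.51% of all. Runs of at least 4 neighbours numbered 50 for lower and 6 for higher genes. The longest lower runs had 8 genes, on chromosome IV from 5450993 to 5480644 around rme-2, and on chromosome V from 9616031 to 9632256, where pqn-63, 5 idpc genes and col-146 stand together. A run of 7 on chromosome IV from 4977226 to 5017766 holds sperm genes of the ssp and ssq families. Because the library strand is not given, reads of overlapping neighbours cannot be told apart.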

How the data were processed

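RNA of 12 pools of whole worms was sequenced, and 6 libraries, those of the vehicle pools, were used. Per the labels' protocols, inserts averaged 200 bp, with paired 50 bp reads. The authors deposited raw read counts per gene for 27928 genes and a table of CPM, and each deposited CPM value equalled the count over its library's total to within 2.91e-11. Aligner, counting tool, genome build, annotation and library strand were not given in the sources used here, and edgeR 3.12.1 is named in the submitters' processing notes. Sequence names were matched to Ensembl 115 (WBcel235), which 27187 did uniquely, and coordinates and exon lengths are of that build.

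The pools were chosen from the deposited CPM. For all other values counts were scaled to CPM with TMM factors of edgeR 4.0.16 in R 4.3.3 over the 6 libraries, and differences are of log2(CPM + 1), which understates changes of low genes. Genes needed a mean of at least 1 CPM over the 6 pools. Because the pools were chosen by values from the same libraries, no test was run. Pools, lists and groups were chosen with earlier results of these data known.

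The text names the 10 lowest and 10 highest differences among separated genes with a mean of at least 5 CPM, up to 5 such members of a list, the defining markers, and the 5 widest ranges within a set of pools in each direction. Genes outside this rule were named after their values were seen.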

Additional observations from a re-analysis of the deposited data

Results flagged for a closer look

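Over 211 values examined for a pool standing apart from the others of its treatment, 1 stood out. The median deviation of the 24 measured patched-related genes was 0.134 in pool 2, and the gap to the nearest of the other pools was 0.704 of the range of the 6. The rule looks for 1 pool apart from all the others. Many of the 211 values belong to genes named because pools 2 and 3 lay together, apart from the other pools, which hides such a gap. The nominal rate of about 1 in 20 groups does not hold for such values, and nothing is read from the number of flags. Pool 3 and pools 1, 4, 5 and 6 lay between -0.02 and 0.03. Of the 24 genes 3 were lower and 3 were higher in pools 2 and 3, with a median difference of 0.03. ptr-23 had 30.9 and 24.2 CPM in pools 2 and 3, against 213, 224, 203 and 206 CPM in pools 1, 4, 5 and 6. ptr-10 had 49.5 and 56.9 CPM in pools 2 and 3, against 21.6, 3.30, 5.61 and 7.01 CPM in pools 1, 4, 5 and 6.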

How the results depend on the processing

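No named gene past the size rule changed direction under the alternatives that were run. Library totals put the medians of the patched-related and transthyretin-related lists, unc-54 and lim-7, all near 0, below 0. With no filter on low values the median was -0.08 for hedgehog-related genes. Library totals also left sams-1 and fasn-1 under the size rule. No paired analysis was possible because only vehicle pools were used, and the 2 sets of pools were compared with no test. With library totals in place of TMM factors the median difference was 0.091 for neuron genes, 0.047 for body wall muscle, 0.28 for fat metabolism and -0.45 for the abu and pqn list. A pseudocount of 0.1 gave 0.18 for neuron genes. With no filter on low values the medians were 0.42 for cuticle genes outside the col class, -0.64 for the col class and -0.13 for abu and pqn genes. With a mean of at least 5 CPM they were 0.18 for neuron genes, -1.58 for the col class and -0.19 for abu and pqn genes. A fold of 1.5 gave 2096 lower and 1306 higher genes. A line at the median of the 6 msp values put 3 pools below it. Leaving out each pool in turn gave medians of 0.10 to 0.18 for neuron genes, 0.33 to 0.40 for fat metabolism, -0.49 to -0.23 (without pool 1) for abu and pqn genes and -1.399 to -1.137 for the col class. It gave 1423 to 1560 lower and 535 to 697 higher genes. The causes of these shifts were not tested. Library totals gave 1548 lower and 539 higher genes, and DESeq2 size factors 1476 and 584. Counts per gene limit the precision of low genes, and with 2 pools in a set no spread of that set can be judged. Trends along GC content and promoter motifs were not analysed here.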

Other observations

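Secreted and enzyme families outside the lists above were counted against the 12.4% lower and 4.96% higher among all measured genes. Of 99 measured C-type lectin genes 14, or 14.1%, were lower and 15, or 15.2%, were higher in pools 2 and 3, with a median of 0.30. clec-180 had 506 and 502 CPM in pools 2 and 3, against 174, 35.3, 91.3 and 70.5 CPM in pools 1, 4, 5 and 6, a difference of 2.65. clec-87 had 21.95 and 16.7 CPM in pools 2 and 3, against 103, 155, 132 and 128 CPM in pools 1, 4, 5 and 6, a difference of -2.68. Of 38 transthyretin-related genes 8, or 21.1%, were lower and 5, or 13.2%, were higher. ttr-14 had 121.7 and 125 CPM in pools 2 and 3, against 486, 592, 534 and 504 CPM in pools 1, 4, 5 and 6. ttr-26 had 29.8 and 37.8 CPM in pools 2 and 3, against 16.8, 1.31, 4.92 and 5.13 CPM in pools 1, 4, 5 and 6. Among 48 cytochrome P450 genes 2, or 4.17%, were lower and 7, or 14.6%, were higher, with -2.33 for cyp-32A1 and 1.47 for cyp-23A1. Of 52 UDP-glucuronosyltransferase genes 4, or 7.69%, were lower and 5, or 9.62%, were higher, and ugt-57 had 18.2 and 29.2 CPM in pools 2 and 3, against 8.11, 0.305, 2.14 and 2.33 CPM in pools 1, 4, 5 and 6. Of 173 nuclear receptor genes 2, or 1.16%, were lower and 7, or 4.05%, were higher, both under the shares of all genes, the median being 0.19. nhr-91 had 33.4 and 44.8 CPM in pools 2 and 3, against 20.8, 6.26, 9.54 and 9.40 CPM in pools 1, 4, 5 and 6. nhr-85, a relative of the mammalian Rev-Erb receptors, had 3.38 and 2.90 CPM in pools 2 and 3, against 9.50, 7.88, 7.49 and 6.79 CPM in pools 1, 4, 5 and 6. None of 29 histone genes was called, with a median of 0.40, and none of 12 lysozyme genes, with a median of 0.44.

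Families of small or repeated genes showed blocks that went one way. On chromosome V a run of 6 pud genes between 2322038 and 2330930 was higher throughout: pud-3 had 39.2 and 41.7 CPM in pools 2 and 3, against 15.1, 6.14, 6.26 and 4.62 CPM in pools 1, 4, 5 and 6. pud-1.1 had 108 and 111 CPM in pools 2 and 3, against 79.0, 39.9, 45.03 and 33.8 CPM in pools 1, 4, 5 and 6. On chromosome X a run from nspc-16 to nspc-19 between 14523575 and 14529114 was higher, and nspc-16 had 15.4 and 15.2 CPM in pools 2 and 3, against 11.1, 3.72, 4.92 and 3.76 CPM in pools 1, 4, 5 and 6. On chromosome II the neprilysin-related genes nep-8, nep-9, nep-10 and nep-20 lay in a lower run of 6 genes, and over the whole class of metallopeptidases 10 of 21 were lower, with a median of -0.96. nep-8 had 10.7 and 9.48 CPM in pools 2 and 3, against 32.9, 40.96, 38.2 and 38.5 CPM in pools 1, 4, 5 and 6. The idpp class had 9 of 12 members lower and 1 higher, and the irld class, relatives of the insulin receptor's ligand-binding part, 6 of 10 lower and none higher. Of the 1476 lower genes 980, or 66.4%, have no symbol beyond their sequence name, against 47.5% of the 591 higher genes and 45.1% of all measured genes. The lists used here held 229, or 15.5%, of the lower and 116, or 19.6%, of the higher genes, against 12.8% of all measured genes. Genes named in this paragraph were chosen after their values were seen.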
